A study of Mus musculus with 15 samples.

Results

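The genes described here encode the proteins of the mitochondrial ribosome, measured in the gastrocnemius muscle of mice with and without muscle Cpt1b. They were taken by name: every gene symbol beginning with Mrpl (large subunit) or Mrps (small subunit) was included, whatever its values. The rule found 75 of the 13602 genes in the table, 47 with Mrpl symbols and 28 with Mrps symbols. All 75 had enough tags to be tested, so no member was lost to the filter on low counts. Mrps36, Mrpl57 and Mrpl58 had no row under those symbols. Mrpl57 and Mrpl58 were present under their older symbols, Mrp63 and Ict1, and were tested with the mitoribosome proteins of other symbols below.

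Mitochondria carry their own ribosome, which translates only the messages of mitochondrial DNA, all of them for membrane subunits of the respiratory chain and ATP synthase. Its proteins are all encoded in the nucleus, made in the cytosol and imported, and are then assembled on RNAs transcribed inside the organelle. Part of them descend from bacterial ribosomal proteins, and the others exist only in mitochondrial ribosomes. In skeletal muscle, whose fibres depend on respiration for sustained work, these transcripts are counted among the nuclear genes of mitochondrial biogenesis.

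The 15 libraries came from the gastrocnemius, a calf muscle, of male mice: 8 controls with the genotype wild type (floxed) and 7 mice with the genotype Cpt1b skeletal muscle knockout. Cpt1b is the muscle carnitine palmitoyltransferase that loads long-chain fatty acids onto carnitine for entry into mitochondria. Titles and protocol describe chow for 12 to 14 weeks, while the diet field of all 15 samples gives 45% HFD, so the diet could not be settled but did not differ between the groups. The labels name neither the Cre driver nor the deleted exons, and since the mice counted in the protocol equal the libraries in number, each library was taken as 1 animal. RNA was profiled by SAGE, which counts 1 short tag per transcript, cut close to its 3′ end, so a count does not grow with transcript length. Levels of different genes can still differ with the place of the tag. Levels are given in CPM, tag counts scaled to a common library size with edgeR's TMM factors.

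Library totals ran from 8334436 tags (control replicate 1) to 19397255 tags (knockout replicate 4). Control replicate 7 and knockout replicate 4 stood apart from the others on the first principal component of all tested genes, which held 44.6% of the variance, with coordinates of 51.2 and 76.2 against -43.0 to 29.7 in the remaining 13. The targeted gene, Cpt1b, was at 7.64 ± 3.17 CPM in the 8 controls and 3.79 ± 1.64 CPM in the 7 knockouts (SD), a log2 fold change of -1.03 ± 0.31 (SE) that did not pass edgeR's quasi-likelihood test (adjusted p = 0.103). Where its tag lies relative to the deleted part is unknown, so its level does not settle the labels. Muscle markers were abundant in every library: the 12 fixed ones summed to between 129724 and 202653 CPM. One of them, the troponin gene Tnnt3, fell from 3121 ± 338 CPM (SD, n = 8) to 1983 ± 305 CPM (SD, n = 7), with an edgeR adjusted p of 0.00629. The other 11 did not pass, and of them Myh2 and Myh1 had positive log2 fold changes, 0.79 ± 0.34 and 0.64 ± 0.33 (SE). The 6 fibroblast markers summed to 2176 to 3848 CPM in controls and 1231 to 3083 CPM in knockouts, none of them past the adjusted threshold. Col1a1, Col1a2 and Dcn were lower at an unadjusted edgeR p under 0.05, with log2 fold changes of -1.03 ± 0.30, -0.64 ± 0.21 and -0.26 ± 0.12 (SE). Of the 6, 2 had positive estimates. The 5 endothelial markers summed to 199 to 316 CPM in controls and 191 to 291 CPM in knockouts. The 5 adipocyte markers summed to 42.0 to 108 CPM in controls and 30.4 to 194 CPM in knockouts, and 1 of them, Lep, was lower in knockouts (log2 fold change -1.83 ± 0.43, SE; edgeR adjusted p = 0.0295). Positive estimates were found for 2 of the 5, Cidec at 0.82 ± 0.50 (SE) and Adipoq at 0.005 ± 0.319 (SE). The 5 macrophage markers summed to 24.8 to 49.3 and 27.4 to 52.8 CPM, none past the adjusted threshold, with Csf1r and Lyz2 lower at an unadjusted p under 0.05. Cd163 was the 1 macrophage marker with a positive estimate, 0.42 ± 0.30 (SE). The part of these markers in the results below was not tested. In whole muscle, fewer cells of a type and less RNA per cell cannot be told apart.

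The tag is the only stretch of each messenger RNA that was counted, so the predicted tags of the members on which the results turn are shown first. Each is the 27 bases from the CATG nearest the 3′ end of 1 coding transcript of the gene in the GENCODE M21 annotation, with that site in capitals. Transcripts matched to a RefSeq messenger RNA were preferred, then the longest. Other coding transcripts can give other tags. Mrpl3 had 3 different predicted tags over its transcripts, Mrpl13 had 2, and the other members printed here had 1 each. Mrpl48 had 5. The counts and distances of tags below rest on the chosen transcript. The labels do not name the anchoring enzyme, and CATG is the usual site of the method.
Mrpl3: CATGtggtcctgaggtatgtttcagca
Mrpl28: CATGtgccgagcacacagttcctgtgg
Mrpl14: CATGcccggctcccgaatgaccccaaa
Mrpl12: CATGtgtgtgtcctgaaccttgcttgg
Mrps2: CATGcttaggggagatgtcacaagtat
Mrps9: CATGgtttatttttagtgctattttgt
Mrpl13: CATGttaataaaatgcttatttggtta
Of these 7 tags, that of Mrpl14 lies in coding sequence and the other 6 lie in the 3′ UTR. A tag could be predicted for all 75 members, and 56 of the 75 fell in a 3′ UTR. The predicted tag had no exact match in the annotated transcripts of another gene for 71 members. The remaining 4 were Mrpl22, Mrpl23, Mrps18c and Mrpl53, whose tags also occur in Gm6997, Mrpl23-ps1, Gm43511 and Gm42688 respectively, so their counts are uncertain. Near matches and sequence outside the annotated transcripts were not searched, so tags of the 71 could be shared too.

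Most members had a slightly higher estimated level in knockout than in control muscle. The log2 fold change (knockout minus control) was positive for 54 of 75 members (72%) against 50.6% of the 11062 genes tested. Under RLE scaling, the authors' size factors and library size alone, 52, 53 and 61 members were positive. The median log2 fold change of all genes under these settings was -0.0096, -0.0061 and 0.055, so library size alone shifted all genes upwards. With TMM scaling the median log2 fold change over members was 0.20, with quartiles of -0.03 and 0.38, while the median over all genes was 0.00. Past edgeR's threshold (quasi-likelihood test, Benjamini-Hochberg adjusted p under 0.05 over all genes) were 3 members, Mrpl3, Mrpl28 and Mrpl14, all higher in knockouts. That is 3 of 75 where 1.67% of all genes were called higher. No member was called lower, and 0.497% of all genes were. At an unadjusted p under 0.05, 11 members were higher and 0 lower, beside 7.65% and 5.92% of all genes. DESeq2 called 6 members higher and 0 lower, beside 2.32% and 1.09% of the genes it tested, adding Mrpl12, Mrps2 and Mrps9. The voom test called the same 3 members as edgeR and 0 lower, beside 1.61% and 0.479%. When a surrogate variable was added as a term, edgeR called 7 higher (Mrpl3, Mrpl12, Mrpl14, Mrpl28, Mrps2, Mrps9 and Mrps23) and 0 lower, beside 3.21% and 1.32%. With no filter on low counts it called 2 higher and 0 lower, beside 1.4% and 0.39%. Leaving out 1 library at a time gave 1 to 7 members higher, and in 8 of the 15 fits Mrpl3 was the only one. Over all genes these fits called 131 to 311 higher. The lowest share was 1.18%, without knockout replicate 2, where 1 member was called. The highest was 2.84%, without control replicate 7, which was also the fit with 7 members. The estimates ran from -0.42 (Mrpl40) to 0.81 (Mrpl34).

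**Figure D1:**
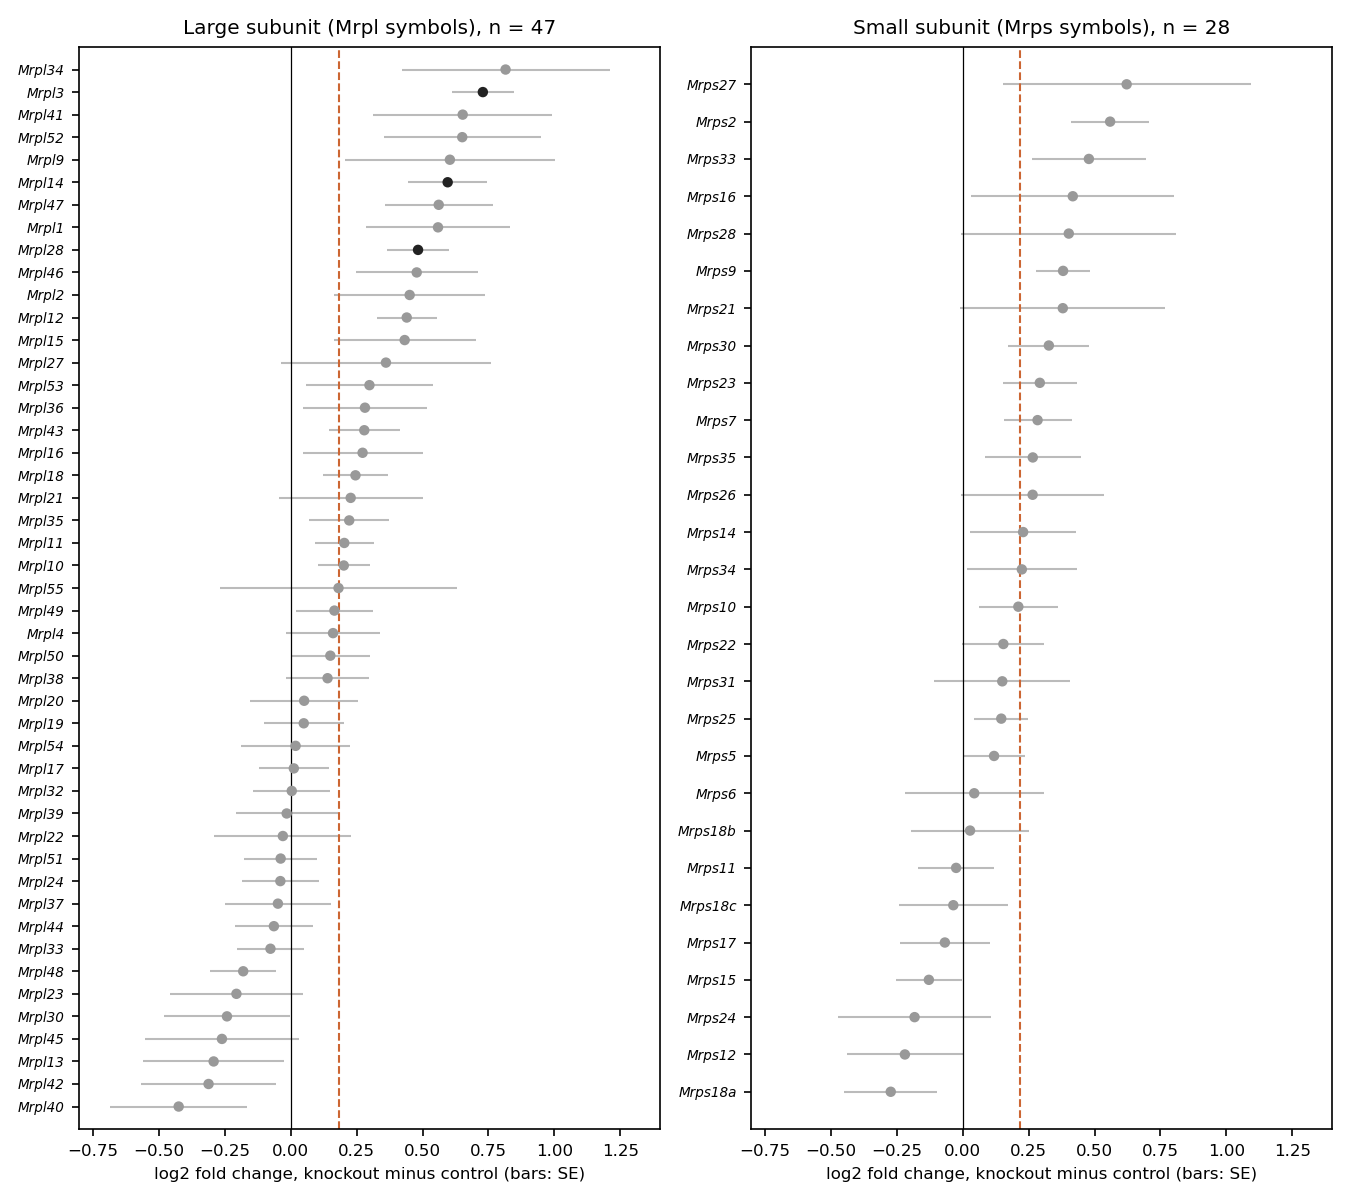
Log2 fold change (knockout minus control, x axis) of each of the 47 Mrpl members (left) and 28 Mrps members (right), with bars for 1 standard error; black points passed edgeR's threshold, the dashed line is the median of each subunit and the solid line is 0. The medians, 0.18 and 0.22, lie to the right of 0, and the 3 black points are Mrpl3, Mrpl14 and Mrpl28.

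Among large-subunit proteins with bacterial relatives, Mrpl3 had the clearest difference. Its protein is a core component that reaches towards the peptidyl transferase centre, where amino acids are joined. The gene lies at chr9:105053239-105079888 (GRCm38). Controls had a lowest, median and highest level of 14.9, 16.2 and 19.6 CPM, and knockouts 22.5, 26.6 and 34.5 CPM. Every knockout library was above every control library. The means were 16.8 ± 1.76 CPM (SD, n = 8) and 27.8 ± 4.27 CPM (SD, n = 7), a log2 fold change of 0.73 ± 0.12 (SE) with an edgeR adjusted p of 0.00145. Of all genes, 0.967% were higher without overlap between the groups and 0.226% were lower. The call held whichever 1 library was left out, with edgeR adjusted p between 0.000923 and 0.00642.

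Mrpl28, at chr17:26123500-26126613, encodes another large-subunit protein of bacterial descent. Its level ran from 88.3 CPM over a median of 116 to 137 CPM in controls and from 141 over 152 to 185 CPM in knockouts. Again no knockout library fell within the control range, although the gap between the highest control and the lowest knockout was narrow. The means were 115 ± 18.1 CPM (SD, n = 8) and 160 ± 16.1 CPM (SD, n = 7), and the log2 fold change was 0.48 ± 0.12 (SE; edgeR adjusted p = 0.039). Single libraries decided this call: it held when control replicate 3, 7 or 8 or knockout replicate 6 was left out, and was lost when any of the other 11 was (edgeR adjusted p 0.0561 to 0.122). With no filter on low counts the adjusted p of Mrpl28 was 0.0532.

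Mrpl14, at chr17:45686322-45698495, encodes a protein of the face that meets the small subunit, where the silencing factor Malsu1 docks. Controls had 5.13, 7.78 and 9.76 CPM as lowest, median and highest level, and knockouts 9.53, 11.9 and 13.8 CPM. The ranges touched: control replicate 7 exceeded the lowest knockout, and 6 of 7 knockouts exceeded every control. The mean rose from 7.72 ± 1.61 CPM (SD, n = 8) to 11.7 ± 1.52 CPM (SD, n = 7), a log2 fold change of 0.60 ± 0.15 (SE; edgeR adjusted p = 0.043). The call held without control replicate 7 (0.0188) or knockout replicate 7 (0.0447) and was lost when any of the other 13 libraries was left out (edgeR adjusted p up to 0.124).

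Mrpl12 fell just short of the threshold. Its protein forms the flexible stalk that recruits translation factors, and Mrpl10 and Mrpl11 sit at the base of that stalk. The gene is at chr11:120484613-120489065. Levels in controls were 50.2, 62.1 and 71.6 CPM (lowest, median, highest) and in knockouts 67.6, 79.4 and 102 CPM, with 6 of 7 knockouts above every control. Its log2 fold change was 0.44 ± 0.11 (SE; edgeR adjusted p = 0.0517), and it passed when control replicate 7 (0.0415) or knockout replicate 7 (0.0406) was left out. The stalk-base members gave smaller estimates that did not pass, 0.20 ± 0.10 (SE) for Mrpl10 and 0.20 ± 0.11 (SE) for Mrpl11. Mrpl10 was also the member with the least spread among controls, with a coefficient of variation of 7.38%.

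Of the 28 members with Mrps symbols, 0 passed edgeR's adjusted threshold, 5 were higher at an unadjusted p under 0.05 (7.65% of all genes were), and DESeq2 called 2. The largest of those estimates belonged to Mrps2, whose protein has a bacterial relative, at chr2:28468066-28471178. Its levels were 15.5, 23.4 and 28.4 CPM in controls (lowest, median, highest) and 26.3, 32.3 and 40.5 CPM in knockouts. All 7 knockouts were above the control median and 5 of 7 above every control. The log2 fold change was 0.56 ± 0.15 (SE; edgeR adjusted p = 0.0565), and it passed once control replicate 3 (0.0455), control replicate 7 (0.0245) or knockout replicate 1 (0.0484) was left out.

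Mrps9, a protein of the small-subunit head at chr1:42851233-42905683, was the most precisely measured of the small-subunit candidates. Controls had 168, 196 and 217 CPM as lowest, median and highest level, and knockouts 214, 255 and 287 CPM. Knockout replicate 4, at 214 CPM, was the only knockout below the highest control. Its log2 fold change was 0.38 ± 0.10 (SE; edgeR adjusted p = 0.064), with an adjusted p of 0.0351 when that library was left out. The other 3 members with Mrps symbols at an unadjusted p under 0.05 were Mrps7, Mrps33 and Mrps30. Of these, Mrps30 sits in the large subunit in structures.

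Mrps7, another head protein with a bacterial relative, is at chr11:115603925-115608036. It had 107 ± 19.8 CPM in controls (SD, n = 8), between 84.5 and 143 CPM, and 131 ± 16.5 CPM in knockouts (SD, n = 7), between 116 and 161 CPM. Only 1 knockout was above every control, and the log2 fold change was 0.28 ± 0.13 (SE; edgeR adjusted p = 0.342). Mrps33, a mitochondria-specific protein at chr6:39801804-39810988, had 12.3 to 28.9 CPM in controls (median 18.3) and 17.1 to 49.3 CPM in knockouts (median 25.7). Its ranges overlapped over most of their width, apart from knockout replicate 4 at 49.3 CPM, and the log2 fold change was 0.48 ± 0.21 (SE; edgeR adjusted p = 0.337).

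**Figure D2:**
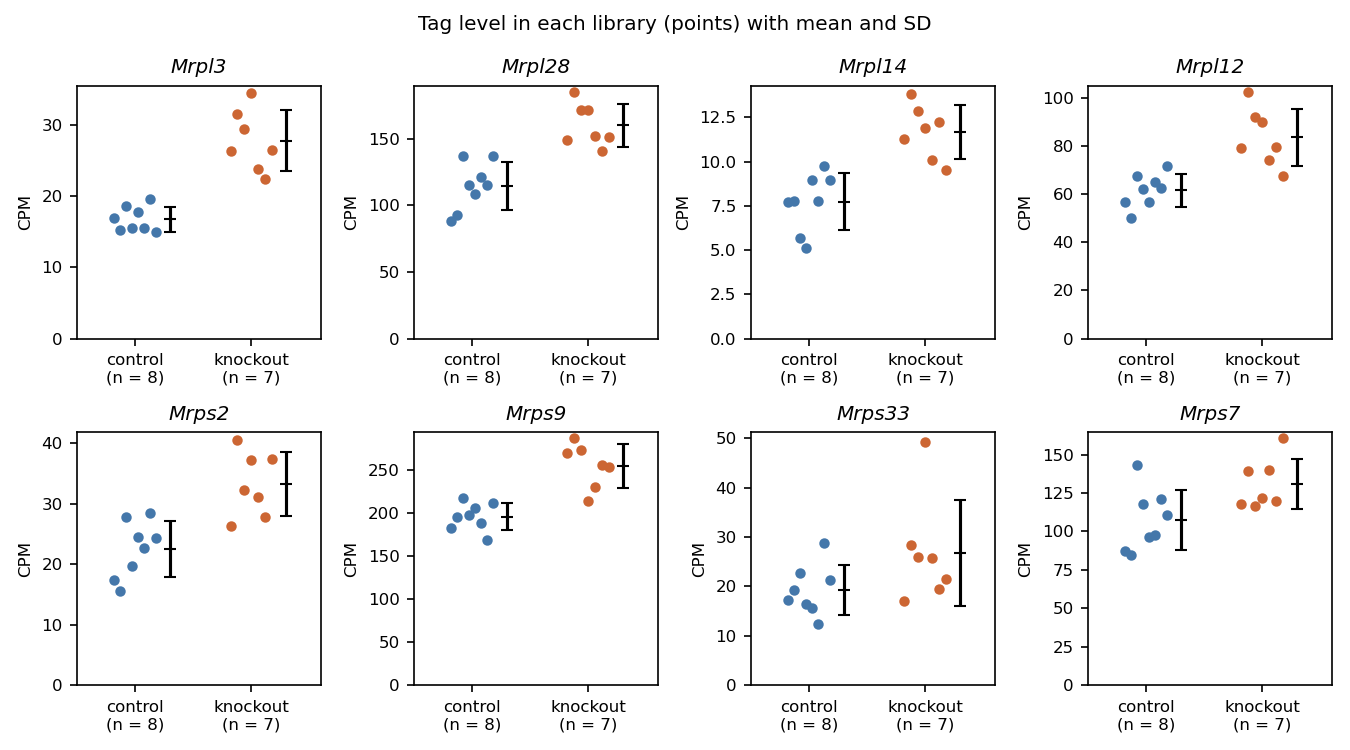
Level in CPM (y axis, from 0) of 8 members in each library, with 1 point per library for controls (blue, n = 8) and knockouts (orange, n = 7), and the mean with 1 SD beside each group. Only for Mrpl3 and Mrpl28 does every knockout point lie above every control point, and the single high point of Mrps33 is knockout replicate 4.

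Abundant members were among those with negative estimates. Mrpl13, at chr15:55534094-55557748, had the highest level of the family and Mrps12, at chr7:28739641-28741820, the highest of the small subunit. Mrpl13 encodes a large-subunit protein with a bacterial relative, and Mrps12 the protein beside the decoding centre, where codon and anticodon pair. Mrpl13 had 895, 2035 and 2839 CPM in controls (lowest, median, highest) and 567, 1830 and 2227 CPM in knockouts, a log2 fold change of -0.29 ± 0.27 (SE; edgeR adjusted p = 0.635). Mrps12 had 207, 448 and 524 CPM in controls and 173, 373 and 502 CPM in knockouts, with -0.22 ± 0.22 (SE; edgeR adjusted p = 0.663). For both genes the lowest control was replicate 7 and the lowest knockout replicate 4, which are the 2 libraries that stood apart, and the ranges of the groups overlapped over most of their width. Without these 2 libraries the log2 fold changes were -0.26 for Mrpl13 and -0.21 for Mrps12, whereas with the surrogate variable both turned positive, at 0.0190 and 0.0288.

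Mrpl40, a mitochondria-specific protein of the large subunit at chr16:18872018-18876862, had the largest negative estimate of the family, -0.42 ± 0.26 (SE; edgeR adjusted p = 0.49). Its levels were 129, 341 and 379 CPM in controls (lowest, median, highest) and 114, 220 and 321 CPM in knockouts. Control replicate 7 and knockout replicate 4 were again the lowest of their groups, and no knockout was above the control median. Without both libraries its log2 fold change was -0.43 (edgeR adjusted p = 0.265), and with the surrogate variable it was -0.09 (0.736).

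Mrps18a and Mrps30 carry small-subunit symbols but sit in the large subunit in structures of the mammalian mitoribosome. Mrps18a, at chr17:46110986-46128910, had 34.6 ± 9.09 CPM in controls (SD, n = 8), between 22.6 and 47.5 CPM, and 28.6 ± 6.17 CPM in knockouts (SD, n = 7), between 21.8 and 37.9 CPM. Its log2 fold change of -0.27 ± 0.18 (SE; edgeR adjusted p = 0.516) was the largest negative one among Mrps symbols. Mrps30, at chr13:118378381-118387252, went the other way, with 25.7 ± 5.44 CPM in controls (SD, n = 8), between 17.8 and 33.5 CPM, and 32.2 ± 5.52 CPM in knockouts (SD, n = 7), between 21.0 and 36.6 CPM. Neither separated the groups, and the log2 fold change of Mrps30 was 0.33 ± 0.15 (SE; edgeR adjusted p = 0.362).

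The medians of the large and the small subunit were close. Of the Mrpl members 33 of 47 had a positive log2 fold change (70.2%, median 0.18), and of the Mrps members 21 of 28 (75%, median 0.22), beside 50.6% and a median of 0.00 over all genes. The difference of the 2 medians, Mrpl minus Mrps, was -0.04. Among single control libraries that difference had a standard deviation of 0.0698, which is the spread of libraries and not the error of the difference between groups. Placing Mrps18a and Mrps30 with the large subunit left the medians at 0.18 over 49 genes and 0.22 over 26. No p is given, since the members of a subunit are not replicates.

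By descent, the large subunit was less even. Its 30 members with a bacterial relative held all 3 called genes, where 1.67% of all genes were called higher. The calls of Mrpl28 and Mrpl14 were lost when most of the single libraries were left out. Of these 30, 24 were positive, with a median of 0.23, where 50.6% of all genes were positive. Of its 19 mitochondria-specific members 0 were called and 10 were positive, with a median of 0.02. In the small subunit the order was the opposite: 10 of 16 members with a bacterial relative were positive (median 0.17) and 10 of 10 mitochondria-specific members (median 0.25). Among the latter were Mrps27, the least abundant member at 0.498 ± 0.335 CPM in controls (SD, n = 8) and 0.821 ± 0.406 CPM in knockouts (SD, n = 7), and Mrps33, both with overlapping groups. The classes also differed in level. Median levels were 20.6 CPM with a bacterial relative and 31.8 CPM mitochondria-specific in the large subunit, and 38.8 and 11.6 CPM in the small. In both subunits the class with the higher median log2 fold change had the lower median level, so descent and level cannot be told apart here. The classes were not tested against each other.

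The same measure was taken library by library. In each library the log2 level of every member was set against that gene's control mean, and the median was taken over members. For Mrpl members this median ran from -0.10 to 0.11 in controls and from 0.05 to 0.45 in knockouts. For Mrps members it ran from -0.13 to 0.12 in controls and from 0.05 to 0.32 in knockouts. Over all genes the range was -0.01 to 0.04 in controls and 0.01 to 0.04 in knockouts. Knockout replicate 4 was highest for both subunits, knockout replicate 2 followed, and the control range held knockout replicate 1 for Mrpl and knockout replicates 1, 6 and 7 for Mrps. Leaving out knockout replicate 4 lowered the median log2 fold change to 0.0921 for Mrpl and 0.12 for Mrps.

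**Figure D3:**
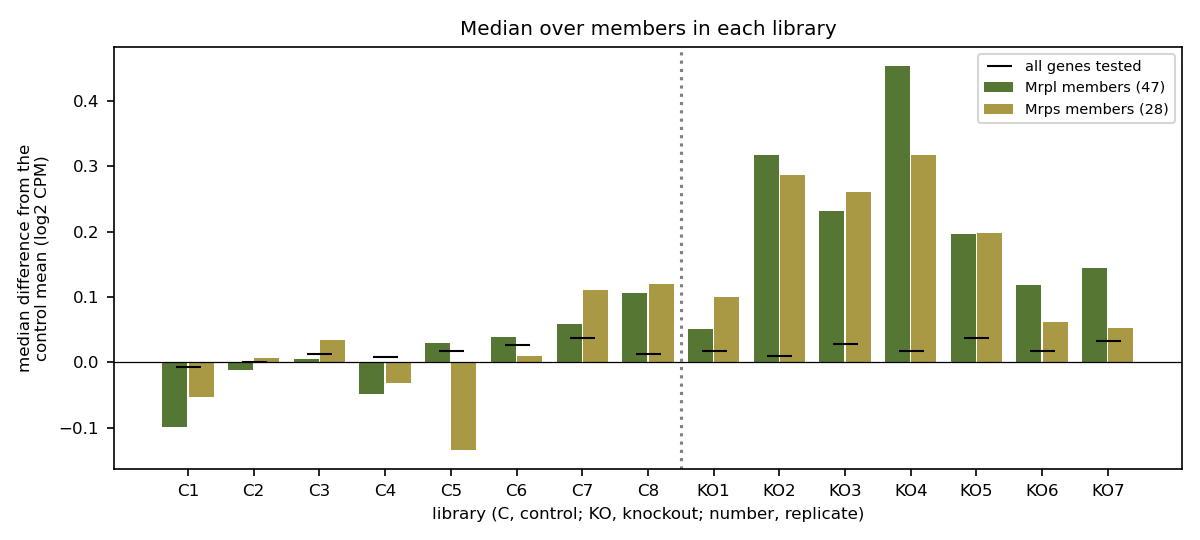
Median over members of the difference from the control mean (log2 CPM, y axis) in each library, for Mrpl members (green) and Mrps members (ochre), with the same median over all genes tested as a black dash. All 7 knockouts are above 0 for both subunits, with the highest bars in knockout replicate 4 at 0.45 and 0.32, while controls lie between -0.13 and 0.12.

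Summed levels did not follow the medians in the large subunit. The Mrpl members together had 7057 ± 1084 CPM in controls (SD, n = 8) and 6723 ± 1125 CPM in knockouts (SD, n = 7), and the Mrps members 1537 ± 94.7 and 1660 ± 122 CPM. Mrpl13 and Mrpl30, both of bacterial descent, supplied 43.6 ± 7.86% (SD, n = 8) of the Mrpl sum in controls and 37.7 ± 7.87% in knockouts (SD, n = 7). Without this pair the Mrpl sum was 3909 ± 238 CPM in controls (SD, n = 8) and 4117 ± 292 CPM in knockouts (SD, n = 7), so the lower mean of the full sum in knockouts came from these 2 genes. The ratio of the Mrpl to the Mrps sum was 4.58 ± 0.540 in controls (SD, n = 8) and 4.03 ± 0.434 in knockouts (SD, n = 7), with ranges of 3.71 to 5.36 and 3.29 to 4.58 that overlapped.

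Levels spread widely over the family. Mean levels over the 15 libraries ran from 0.649 CPM (Mrps27) to 1810 CPM (Mrpl13), with a median of 24.3 CPM. The 5 most abundant were Mrpl13, Mrpl30, Mrpl18, Mrpl42 and Mrpl32. Among the 21 members with a mean of at least 100 CPM, 10 had a positive log2 fold change and the median was -0.04, as it was over all 1161 genes of that level. Of the 34 members between 10 and 100 CPM, 27 were positive (median 0.22, against 0.01 over 4319 genes), and of the 20 below 10 CPM, 17 were positive (median 0.21, against 0.00 over 5582 genes). Each level class held 1 called member, where 47 of 1161, 67 of 4319 and 71 of 5582 genes were called higher from the highest to the lowest class.

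Some libraries split the same way, among them the 2 that stood apart. In control replicate 7 the median difference from the control mean was -0.26 for the members of at least 100 CPM and 0.32 for the others. In knockout replicate 4 it was -0.13 and 0.54. The split was not particular to them: it was -0.13 and 0.28 in knockout replicate 5, -0.06 and 0.14 in knockout replicate 7, and -0.10 and 0.03 in control replicate 3. In all remaining libraries the median of the members of at least 100 CPM was positive. Leaving out control replicate 7 and knockout replicate 4, 50 of 74 members had a positive log2 fold change. In that fit edgeR called 5 higher (Mrpl3, Mrpl14, Mrpl28, Mrps2 and Mrps9) and 0 lower, where 2.32% of all genes were called higher and 1.35% lower. Leaving out control replicate 7 alone gave 7 of 74 (Mrpl3, Mrpl12, Mrpl14, Mrpl28, Mrpl46, Mrpl52 and Mrps2), and 0 lower, where 2.84% of all genes were called higher and 1.41% lower.

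Level was also set against the place of the tag. Members with the predicted tag within 100 bases of the transcript end had a median level of 71.7 CPM (26 genes), those further out and up to 300 bases 25.1 CPM (24 genes) and those beyond 300 bases 16.2 CPM (25 genes). Spearman's rho between level and distance was -0.25 over the 75 genes, which share the same libraries. The tag of Mrpl13 printed above starts 31 bases from the end of the transcript chosen for it. The log2 fold change showed no such order, with medians of 0.22, 0.27 and 0.15 in the same 3 classes.

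**Figure D4:**
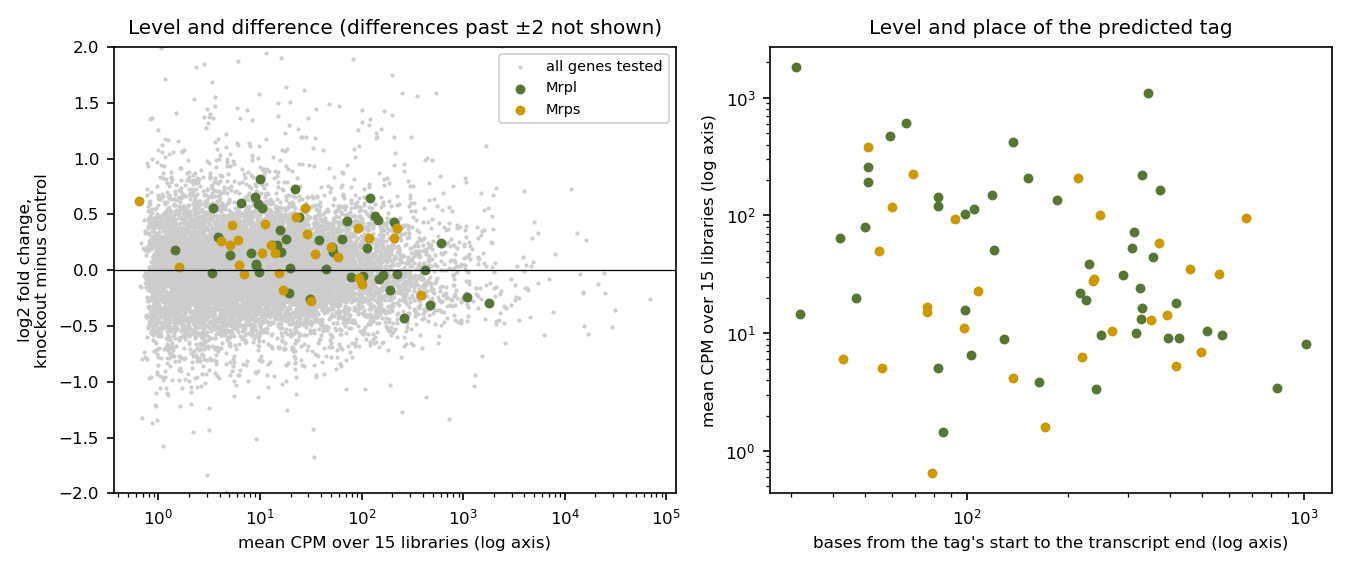
Left, log2 fold change (knockout minus control, y axis) against mean level over 15 libraries (CPM, log axis) for Mrpl (green), Mrps (ochre) and all genes tested (grey); right, mean level (CPM, log axis) against the distance in bases from the tag's start to the transcript end (log axis) for the 75 members. The members of at least 100 CPM scatter around -0.04 on the left, and Mrpl13 is the point at the upper left of the right panel.

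Members differed in how much they varied among controls. The coefficient of variation among controls ran from 7.38% (Mrpl10) over a median of 26.3% to 82.2% (Mrpl27). Mrpl34 had the largest estimate, 0.81 ± 0.39 (SE; edgeR adjusted p = 0.376), on levels of 7.46 ± 4.31 CPM (SD, n = 8) and 13.1 ± 8.91 CPM (SD, n = 7) that overlapped. Mrpl52, a mitochondria-specific member, had 95.3 ± 52.9 CPM in controls (SD, n = 8) and 149.8 ± 45.1 CPM in knockouts (SD, n = 7), a log2 fold change of 0.65 ± 0.30 (SE; edgeR adjusted p = 0.348).

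The start regions of the genes were read for motifs of the factors known to drive nuclear genes of mitochondrial biogenesis. RefSeq windows (GRCm38.p6, 250 bases before to 50 after the start) were at hand for 66 of the 75 members, with 72 windows in all. The stretches around the first match in 4 of the members described above are printed to show what was found, 5′ to 3′ on the gene's strand, with the match in capitals.
Mrpl3: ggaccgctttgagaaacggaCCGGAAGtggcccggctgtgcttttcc
Mrpl14: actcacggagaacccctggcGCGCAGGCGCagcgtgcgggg
Mrpl12: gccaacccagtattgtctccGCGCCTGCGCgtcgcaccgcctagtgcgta
Mrps9: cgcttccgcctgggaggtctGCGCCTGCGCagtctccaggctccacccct
They lie at chr9:105053229-105053275, chr17:45686333-45686373, chr11:120484536-120484585 and chr1:42851208-42851257, all on the plus strand. The Mrpl3 match is an ETS motif, the letters bound by GABP (NRF2), and begins 19 bases before the start. The others are NRF1 motifs, beginning 81 bases before the start in Mrpl12, 5 before in Mrps9 and 4 after in Mrpl14, where the motif reads on the opposite strand.

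Both strands were searched for 6 motifs. The ETS letters CCGGAAG were in 33.3% of member windows, in 8.86% of all 32851 windows and in 17% of those of genes tested here. The NRF1 letters, GCGC and TGCGC with any 1 base between, were in 16.7% of member windows, 4.6% of all and 9.94% of those of genes tested. The YY1 letters, AA, any 1 base, then ATG and GCGGC joined, were in 9.72%, 0.986% and 2.42%. The nuclear receptor element AAGGTCA, bound by the estrogen-related receptors, was in 5.56% of member windows, 4.72% of all and 3.05% of those of genes tested. The direct repeat of AGGTCA with 1 base between copies, which can overlap it, was in 0%, 0.0396% and 0.029%. The E-box CACGTG was in 9.72% of member windows, more than the 7.15% of all but less than the 10.1% of those of genes tested. Overlapping windows of Mrpl2 counted the same E-box site more than once. By gene, 5 members had the E-box and 61 did not. By subunit the ETS letters were in 28.3% of Mrpl and 42.3% of Mrps windows and the NRF1 letters in 19.6% and 11.5%. A match is a run of letters, not a measured site.

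The 24 members with ETS letters had a median log2 fold change of 0.26 and the 42 without 0.17. For NRF1 the medians were 0.14 in 12 members and 0.20 in 54, and for YY1 0.22 in 7 members and 0.20 in 59. The nuclear receptor element gave 0.33 in 4 members and 0.19 in 62, and the E-box 0.05 in 5 members and 0.20 in 61, on few genes each. The windows of Mrpl28 and Mrps2 held none of the 6 motifs.

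Other genes of mitochondrial gene expression gave 2 calls in all, where 1.67% of all genes were called higher, and list medians between 0.07 and 0.28, where the median of all genes was 0.00. Mitoribosome proteins with other symbols gave 0 calls among 6 genes, 5 of them positive, with a median of 0.25. Ptcd3, a small-subunit protein of the pentatricopeptide family, had 0.65 ± 0.23 (SE; edgeR adjusted p = 0.188), the GTP-binding Dap3 0.20 ± 0.10 (SE) and the large-subunit protein Gadd45gip1 0.28 ± 0.14 (SE). Of 21 factors of mitoribosome assembly 0 were called and 17 were positive (median 0.16). Closest were Rpusd4, a pseudouridine synthase, at 0.47 ± 0.14 (SE; edgeR adjusted p = 0.102), the rRNA methyltransferase Nsun4 at 0.40 ± 0.14 (SE), and Trub2 at 0.49 ± 0.18 (SE).

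Translation factors of the organelle gave 0 calls among 12 genes, 8 positive, with a median of 0.07. The elongation factor Gfm1, which moves the ribosome along the message, had 20.8 ± 3.85 CPM in controls (SD, n = 8) and 29.1 ± 3.44 CPM in knockouts (SD, n = 7), a log2 fold change of 0.49 ± 0.13 (SE; edgeR adjusted p = 0.0565). The release factor Mtrf1 went the other way at -0.56 ± 0.24 (SE; edgeR adjusted p = 0.321), and the initiation factor Mtif3 was at 0.25 ± 0.14 (SE). Of the 19 genes that charge mitochondrial tRNAs 0 were called and 15 were positive (median 0.18), with Vars2 at 0.49 ± 0.13 (SE; edgeR adjusted p = 0.0731), Qrsl1 at 0.36 ± 0.14 (SE) and Nars2 at 0.34 ± 0.14 (SE).

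Genes for the upkeep and transcription of mitochondrial DNA, which supplies the ribosome's RNA, gave 1 call among 16 (1.67% of all genes were called higher), with 13 positive and a median of 0.28. Mterfd3, of the mitochondrial termination factor family, was higher in knockouts, at 15.3 ± 1.51 CPM (SD, n = 8) and 22.6 ± 1.86 CPM (SD, n = 7), a log2 fold change of 0.56 ± 0.10 (SE; edgeR adjusted p = 0.00452). Tfam, which packages the DNA and starts transcription, had 75.3 ± 5.57 CPM (SD, n = 8) and 93.3 ± 4.18 CPM (SD, n = 7), groups that did not overlap, with 0.31 ± 0.09 (SE; edgeR adjusted p = 0.0961). The DNA polymerase Polg was at 0.59 ± 0.21 (SE; edgeR adjusted p = 0.185).

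Of 9 nuclear regulators of these programs 1 was called, against 1.67% of all genes, and 8 were positive (median 0.23). Esrrb, an estrogen-related receptor, was higher in knockouts at 0.998 ± 0.212 (SE, log2 scale; edgeR adjusted p = 0.0137). Ppargc1a, the coactivator of mitochondrial biogenesis, had 30.3 ± 9.35 CPM (SD, n = 8) and 51.0 ± 19.8 CPM (SD, n = 7), a log2 fold change of 0.75 ± 0.22 (SE; edgeR adjusted p = 0.0915). Ppargc1b was at 0.73 ± 0.36 (SE; edgeR adjusted p = 0.384).

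The genes of oxidative phosphorylation, among them those for partners of the proteins that the mitoribosome makes, were shifted further. They were taken by the beginning of their symbols, so the list can hold genes that are not subunits, such as Atp5s and Atp5sl. Of these 75 nuclear genes 64 were positive, and the median was 0.33. By edgeR 4 were called higher and 0 lower (1.67% and 0.497% of all genes), with 30 higher at an unadjusted p under 0.05 (7.65% of all genes). The called count rests on single libraries: it was 15 without control replicate 7 (2.84% of all genes), 10 without both libraries that stood apart (2.32%) and 1 without knockout replicate 2, where 1.18% of all genes were called higher and 0.269% lower. The ribosomal proteins of the cytosol had 33 of 57 positive, a median of 0.14 and 0 calls in either direction by edgeR, with 3 higher and 2 lower at an unadjusted p under 0.05 (7.65% and 5.92% of all genes). No test between these lists was made.

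**Figure D5:**
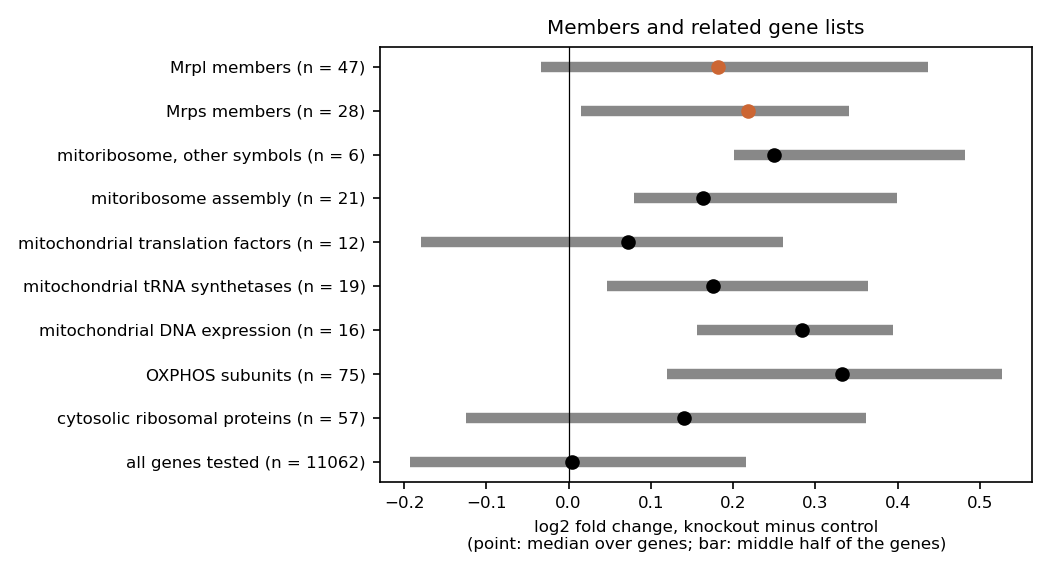
Median log2 fold change (point) and lower to upper quartile (bar) for both subunits, related lists and all genes tested, in knockout minus control (x axis, log2). Mrpl and Mrps members lie at 0.18 and 0.22, below the oxidative phosphorylation list at 0.33 and above the cytosolic ribosomal proteins at 0.14 and all genes at 0.00.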

How the data were processed

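The authors deposited raw counts of tags by gene symbol for 15 SOLiD SAGE libraries, and normalized signal values that equal the counts divided by 1 factor per library. Per the submitters' processing notes, DESeq2 was used, and the builds named are mm10 and GRCm38.p1. How tags were aligned and counted, and the annotation, are not given in the sources used here. Dropped were 360 empty lines that hold no counts. All tests used the raw counts. Groups and replicate numbers came from the titles, and the labels give no batch.

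All genes were fitted together with edgeR 4.0.16 in R 4.3.3 (TMM scaling, filterByExpr with a minimum count of 10, robust quasi-likelihood test, group as the only term, Benjamini-Hochberg over 11062 genes, threshold 0.05). The filter removed 2540 genes. The SE of a log2 fold change was obtained from it and the root of the F statistic. For log2 CPM the prior count was 2. The procedure was tested on simulated data. Total counts were 8334436 to 19397255 tags, and the biological coefficient of variation was 0.291.

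Other settings were RLE scaling, library size alone, the authors' size factors, no filter, a mean of at least 50 counts, DESeq2 1.42.0, voom (limma 3.58.1), a replicate block, a surrogate variable (sva 3.50.0), each library left out, and control replicate 7 with knockout replicate 4 left out. Values in every library are summarised for called members, the 4 Mrpl and 4 Mrps members with the smallest p, the most abundant and the most negative of each subunit, and Mrps18a and Mrps30, and up to 3 genes of smallest p are named from each other translation list. Mrpl10, Mrpl11, Mrpl34, Mrpl52, Mrps27 and the oxidative phosphorylation counts were added after their values were seen. Members and lists were chosen with earlier results of these data known. Tags, gene positions and UTRs came from GENCODE M21 (GRCm38) and start regions from RefSeq (GRCm38.p6).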

Additional observations from a re-analysis of the deposited data

Results flagged for a closer look

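Among 36 groups of libraries checked for a single distant value (Dixon's criterion at 95%), 3 held one, where chance gives about 1 in 20. Mrps33 was at 49.3 CPM in knockout replicate 4, with the next knockout at 28.3 CPM. Mrps30 was at 21.0 CPM in knockout replicate 7, below the next knockout at 30.2 CPM. The Mrps members summed to 1344 CPM in control replicate 7, below the next control at 1527 CPM. Knockout replicate 4 and control replicate 7 are the libraries that stood apart over all genes.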

How the results depend on the processing

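No setting called a member lower in knockouts. Mrpl3 was called in every setting but the replicate block. The number of Mrps members called higher, 0, was 1 with library size alone and with a mean of at least 50 counts, 2 with DESeq2, 3 with the surrogate variable and 2 without control replicate 7 and knockout replicate 4. Over all genes, 185 higher and 55 lower became 310 and 145 with DESeq2, 355 and 146 with the surrogate variable, and the lower count 148 without those libraries. With the surrogate variable the Mrps median was 0.11, and the log2 fold changes of Mrpl13 and Mrps12 turned to 0.0190 and 0.0288 (edgeR adjusted p = 0.964 and 0.932); the cause was not tested. Leaving out 1 library at a time gave 131 to 311 genes higher and 30 to 154 lower, 1 to 6 Mrpl and 0 to 1 Mrps members higher, 0 to 0 members of either kind lower, and medians of 0.0921 to 0.211 (Mrpl) and 0.12 to 0.26 (Mrps), with a difference of -0.07 to 0.02; knockout replicate 4 gave the lowest medians and control replicate 7 the highest counts. Library size alone moved the median of all genes to 0.05.

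Controls and knockouts share replicate numbers, but same-numbered libraries did not deviate together: 3 of 7 pairs had a correlation above 0.1 (range -0.45 to 0.31), and 1 of 7 correlated best with its own number. With the numbers as a replicate block 98 genes were higher and 19 lower, and 0 Mrpl members were called (Mrpl3 adjusted p = 0.0536). Precision is limited by 7 and 8 animals and, for members below 10 CPM, by tag counts.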
